A study of Mus musculus with 12 samples.

Results

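The miR-106b-25 cluster is a polycistron of 3 microRNA hairpins that lies on the reverse strand within an intron of Mcm7, which encodes a subunit of the helicase that opens DNA at replication origins. Its 6 mature arms, mmu-miR-106b-5p, mmu-miR-106b-3p, mmu-miR-93-5p, mmu-miR-93-3p, mmu-miR-25-5p and mmu-miR-25-3p, named below without the species prefix, were taken by name from the deposited table of 1906 mature microRNA names, and all 6 were present. They were read in the livers of untreated wild-type mice of the outbred stock Crl:CD1(ICR), 6 males and 6 females, all 8 weeks old, with 1 small RNA library per liver. Litter and housing are not stated, so the p-values rest on the spread among these livers alone. The comparison asks which microRNAs differ between male and female liver.

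A microRNA hairpin is cut by Drosha and Dicer into a duplex, and usually a single arm, the guide, is kept in Argonaute while the passenger arm is degraded. The guide finds its messenger RNA targets mainly through its seed, bases 2 to 8. Mcm7 is transcribed under E2F factors when cells enter the cycle, and the cluster comes from the same transcription unit. In human cancer cells miR-106b-5p and miR-93-5p repress the cyclin-dependent kinase inhibitor p21, and miR-25-3p represses the pro-apoptotic protein Bim. The cluster is a paralogue of the miR-17-92 cluster on chromosome 14 and of the miR-106a-363 cluster on chromosome X.

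The mature sequences show which arms can share targets. They are printed 5′ to 3′ from RefSeq's GRCm38.p6 annotation, with the seed in capitals.
miR-106b-5p: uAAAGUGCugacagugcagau
miR-93-5p: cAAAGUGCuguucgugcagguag
miR-25-3p: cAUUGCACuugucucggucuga
miR-106b-3p: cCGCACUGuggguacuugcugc
miR-93-3p: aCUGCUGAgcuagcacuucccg
miR-25-5p: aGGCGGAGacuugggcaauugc
miR-106b-5p and miR-93-5p carry the same seed, although the rest of their sequence differs, with 5 mismatches over 21 bases when aligned from the 5′ end. The seed of miR-25-3p is a different one. No other mature mouse microRNA in that annotation has the seed of miR-106b-3p, miR-93-3p or miR-25-5p.

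The 3 hairpins are printed below because the position of an arm within its hairpin decides which reads are compared later. The mature arms are in capitals, the 5p arm first.
Mir106b: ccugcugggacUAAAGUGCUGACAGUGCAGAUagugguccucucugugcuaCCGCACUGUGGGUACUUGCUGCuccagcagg
Mir93: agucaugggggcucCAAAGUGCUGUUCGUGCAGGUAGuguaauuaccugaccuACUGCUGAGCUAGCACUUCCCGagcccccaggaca
Mir25: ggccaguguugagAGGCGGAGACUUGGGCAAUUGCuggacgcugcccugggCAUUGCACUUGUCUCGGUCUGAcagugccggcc
In GENCODE's annotation of the later build GRCm38 all 3 hairpins lie in intron 13 of the principal Mcm7 transcript, which has 15 exons, and on its strand. In the mm9 coordinates of the deposited table the arms span 476 bases of chromosome 5, from 138606560 to 138607035, in the order miR-106b, miR-93 and miR-25 along the direction of transcription. miR-106b-5p lies at 138607015 to 138607035 and miR-106b-3p at 138606974 to 138606995. miR-93-5p lies at 138606802 to 138606824 and miR-93-3p at 138606764 to 138606785. miR-25-5p lies at 138606598 to 138606619 and miR-25-3p at 138606560 to 138606581. Each arm has 1 locus, no other locus of the table overlaps it, and no other microRNA of the table lies within 10000 bases of the cluster.

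Libraries held between 2953955 and 5516430 microRNA counts. A floor of 3 counts, given for scale and not used as a filter, corresponds to 0.544 to 1.02 CPM, counts scaled to a common library size. This floor covers counting error only. Levels below are CPM with library sizes adjusted by edgeR's TMM method, and all 6 arms passed the filter on low counts that left 419 names for testing. Hepatocyte microRNAs (both arms of miR-122, miR-192-5p, miR-194-5p and miR-148a-3p) together took 439189 to 481853 CPM in males and 519285 to 549837 CPM in females when scaled by total counts alone, so the defining microRNAs of the labelled tissue were present. Those ranges do not overlap between the sexes at that scaling. With TMM 0 of the 5 passed edgeR's test between the sexes, beside 16.9% of all 419 tested names. Among the 5, 1 had an unadjusted p under 0.05, beside 29.4% of all tested names. Their log2 fold changes of male over female ran from -0.18 to -0.02. The part of the difference in the summed level in the results below was not tested. Male 1 stood apart in several values of the cluster, and the members' fold changes and profile ranks that move most without it are given both ways. Fold changes of names outside the cluster are given with male 1 included only.

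The cluster's arms differed widely in abundance although they come from a single transcription unit. miR-93-5p was the most abundant arm with a mean of 1478 CPM over all 12 livers, the 48th most abundant of all names. miR-25-3p followed with 948 CPM (56th), then miR-106b-5p with 139 CPM (133rd), miR-106b-3p with 75.3 CPM (161st), miR-93-3p with 10.7 CPM (290th) and miR-25-5p with 3.27 CPM (395th). This order held in 12 of 12 livers at each step except between the arms of miR-106b, where it held in 11 of 12, the exception being male 1. A read covers a whole mature arm, so no scaling by length was needed, but ligation and amplification favour some sequences and a ratio between different arms is therefore a ratio of reads. Together the 6 arms took 0.217 to 0.258% of counts in males and 0.27 to 0.3% in females. Their summed level was 2540 ± 76.1 CPM (SD, n = 6) in male livers and 2769 ± 98.4 CPM (SD, n = 6) in female livers, and the highest male, at 2606 CPM, lay just under the lowest female, at 2625 CPM.

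**Figure D1:**
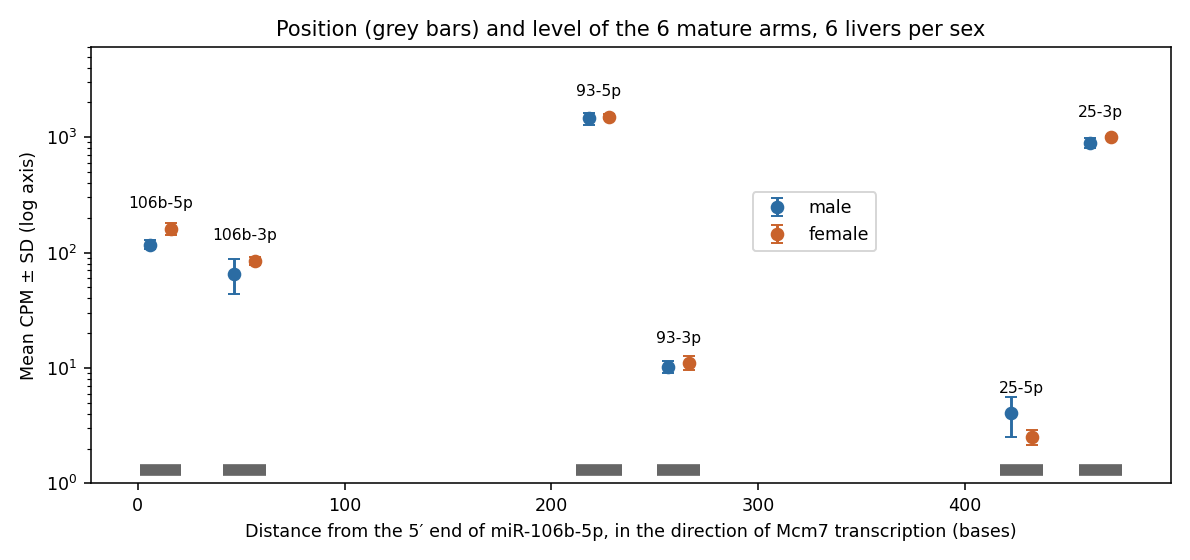
Mean level of each arm in CPM (log axis, with SD, 6 male and 6 female livers) against its distance in bases from the 5′ end of miR-106b-5p; grey bars mark the arms along 476 bases. The guide arms miR-93-5p and miR-25-3p, at 1478 and 948 CPM, lie well above miR-106b-5p, first in the transcript, at 139 CPM.

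miR-106b-5p, the rarest of the 3 guide arms, was lower in male livers, and it was the only member that passed the test between the sexes. Its level in males ran from 102 to 128 CPM with a median of 119, and in females from 132 to 187 CPM with a median of 163. All 6 females lay above every male. The male mean was 117 ± 10.8 CPM (SD, n = 6) and the female mean 162 ± 19.7 CPM (SD, n = 6), or 1.38-fold higher in females. The log2 fold change of male over female was -0.46, with a standard error of 0.10 and a 95% interval from -0.68 to -0.25 (edgeR's quasi-likelihood test, Benjamini-Hochberg adjusted p = 0.00584 over 419 names, unadjusted rank 29). Of the 6 members 1 was called lower in males and 0 higher; without adjustment 4 of the 6 had a p under 0.05, and DESeq2 called 2, miR-106b-5p and miR-25-3p, where it called 20.3% of all 419 names. Among all tested names 8.59% were called lower in males, 8.35% higher and 16.9% in either direction, 29.4% had an unadjusted p under 0.05, and in 3.58% every male lay below every female. A count of 1 in 6 is thus close to the share among all names.

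The call of miR-106b-5p was kept with each liver left out in turn, with adjusted p between 0.00303 and 0.0177, and over the other alternatives its adjusted p ran from 8.77e-05 with DESeq2 to 0.0609. The last value arose where all 1292 names with a count were tested without a filter, which ended the call. In the authors' deposited table the log2 fold change of miR-106b-5p was -0.43 with p = 0.00416 and an FDR of 0.141 over 2044 loci, so that it was not called there. The authors' deposited table gave an FDR of at least 0.42 for each of the other arms.

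miR-106b-3p, the opposite arm, had a log2 fold change of similar size that did not pass the test. It ran from 45.9 to 106 CPM in males with a median of 59.2, and from 80.1 to 97.8 CPM in females with a median of 83.7. The groups overlapped only through male 1, which at 106 CPM was above every female, while the other males lay between 45.9 and 71.6 CPM, below every female. The log2 fold change was -0.38 with a 95% interval from -0.76 to -0.0044 (edgeR's quasi-likelihood test, adjusted p = 0.163). Without male 1 it was -0.58 with an adjusted p of 0.00514, and with any other single liver left out the test was not passed. Male 1 was therefore high for miR-106b-3p and, at 102 CPM, the lowest of all livers for miR-106b-5p from the same hairpin.

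miR-93-5p, which has the seed of miR-106b-5p and lies next to it in the transcript, showed no detectable sex difference. It ran from 1182 to 1647 CPM in males with a median of 1474, and from 1382 to 1574 CPM in females with a median of 1532. The male range enclosed the female range. Its log2 fold change was -0.05 with a 95% interval from -0.22 to 0.12 (edgeR, adjusted p = 0.716). That interval leaves out the -0.46 of miR-106b-5p, whose own interval ran from -0.68 to -0.25. Because miR-106b-5p was singled out by its call, no test of a difference between these arms is read from this. The passenger arm miR-93-3p ran from 8.09 to 11.7 CPM in males, and its female range of 8.99 to 13.4 CPM overlapped this. It had a log2 fold change of -0.10 with an interval from -0.40 to 0.19 (edgeR, adjusted p = 0.667).

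miR-25-3p, the guide arm of the last hairpin, lay within a narrow range in females, from 977 to 1044 CPM with a median of 1006. In males it ran from 781 to 1025 CPM with a median of 889.6. Again male 1 held the highest male value, 1025 CPM, and the other males, at 781 to 929 CPM, lay below every female. The log2 fold change was -0.18 with an interval from -0.32 to -0.03 (edgeR, adjusted p = 0.0917). It passed the test without male 1, at -0.23 with an adjusted p of 0.017, as well as with scaling by total counts alone (-0.28, adjusted p = 0.0279) and with DESeq2 (-0.16, adjusted p = 0.0488). Over all its alternatives the adjusted p ran from 0.0148 to 0.491.

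miR-25-5p, the passenger arm of that hairpin, was the only member with a positive log2 fold change. It was rare, with 8 to 23 counts per liver in males and 8 to 14 in females, or 2.22 to 6.48 CPM with a median of 3.99 against 2.06 to 3.18 CPM with a median of 2.43. Of the 6 males 4 lay above every female, and the other 2 were within the female range. The log2 fold change was 0.67 with an interval from 0.14 to 1.20 (edgeR, adjusted p = 0.0771). Without male 1, which held the highest value, it was 0.50 (edgeR, adjusted p = 0.145). Without male 5 it was 0.79 (edgeR, adjusted p = 0.039), the only 1 of 12 fits with a liver left out that passed. Over the 6 members the median log2 fold change was -0.14 and 5 were negative, beside a median of -0.02 and 222 negative among the 419 tested names.

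**Figure D2:**
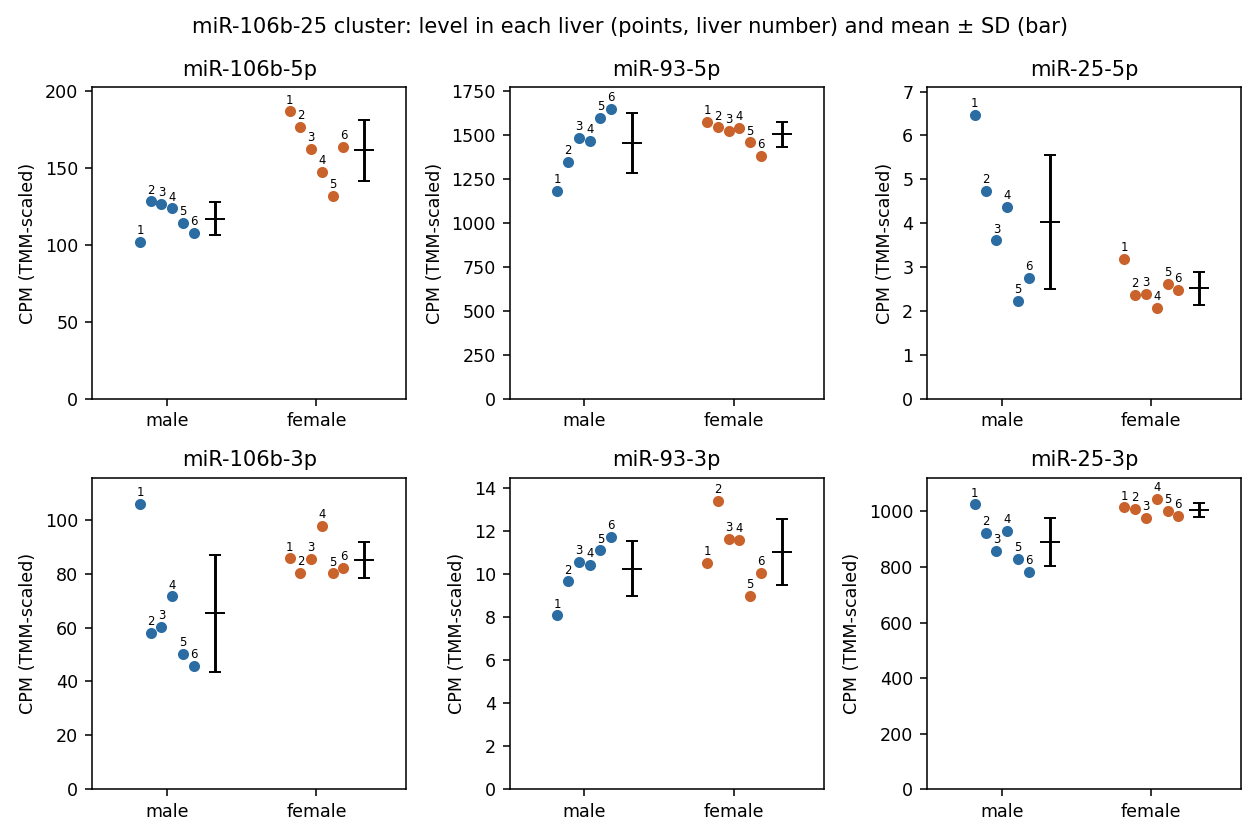
Level of each arm in CPM (linear axis from 0) in every liver, with the liver number at each point and the mean with SD at the side. For miR-106b-5p every female lies above every male, while male 1 is the highest male for miR-106b-3p, miR-25-3p and miR-25-5p and the lowest for miR-93-5p and miR-93-3p.

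Ratios to miR-106b-5p show how the other arms stood beside it in each liver. The denominator was chosen because earlier results on these data had called it lower in males, so that ratios to it tend to be higher in males by that choice. They are given as a description, with no test read from them. With limma 42.1% of the 418 other tested names passed an adjusted p of 0.05 for such a ratio.

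Each liver held 10.5 to 15.3 reads of miR-93-5p per read of miR-106b-5p in males and 8.43 to 11 in females, and the means of males and females were 12.5 ± 1.79 and 9.41 ± 1.10 (SD over 6 livers). In 5 of 6 males the ratio was above that of every female, and the groups overlapped only because male 2, at 10.5, was below female 5, at 11. For miR-25-3p the ratio to miR-106b-5p was 7.67 ± 1.19 in males and 6.31 ± 0.837 in females. Male 1, with 10.1, lay far from the other males, at 6.77 to 7.50, and the groups overlapped. The log2 ratio of males over females was 0.40 for miR-93-5p, 0.28 for miR-25-3p, 0.36 for miR-93-3p and 0.99 for miR-25-5p. For miR-106b-3p, from the same hairpin as the denominator, it was 0.02 with an interval from -0.41 to 0.46. That interval is too wide to show that both arms moved together. Without male 1 the log2 ratio of miR-106b-3p was -0.16.

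The arms of each hairpin were compared by the log2 ratio of 5p to 3p arm among the 124 hairpins with both arms tested, of which 2.42%, or 3, were called. The miR-93 hairpin gave 138 reads of the 5p arm per read of the 3p arm over all livers, and the sexes differed by 0.04 on the log2 scale with an interval from -0.16 to 0.25 (limma, adjusted p = 0.853). In the miR-106b hairpin, with 1.88 reads of the 5p arm per read of the 3p arm, the arms were nearest to balance, and 25 of the 124 hairpins were less skewed. The hairpin of miR-25 was skewed the other way, with 294 reads of the 3p arm per read of the 5p arm, and 112 of 124 hairpins were less skewed.

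The miR-25 hairpin was 1 of the 3 called, with relatively more of the 5p arm in males. The 5p arm held 0.268 to 0.628% of the hairpin's reads in males, with 0.441 ± 0.126%, and 0.197 to 0.313% in females, with 0.25 ± 0.0377% (SD over 6 livers). Male 5, at 0.268%, was the only male below female 1, at 0.313%, and the other 5 exceeded all females. The log2 ratio of the 5p to the 3p arm was higher in males by 0.71 with an interval from 0.36 to 1.05 (limma, adjusted p = 0.0213). These values rest on 92 reads of the 5p arm in all males and 63 in all females, and the exact 95% Clopper-Pearson interval of a single liver was wide, from 0.384 to 0.968% in male 1 and from 0.167 to 0.534% in female 1. The limma call was lost in 7 of 12 cases when 1 liver was left out, namely male 2, male 3 and every female but female 1 (adjusted p up to 0.0738), while the difference stayed between 0.62 and 0.82.

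**Figure D3:**
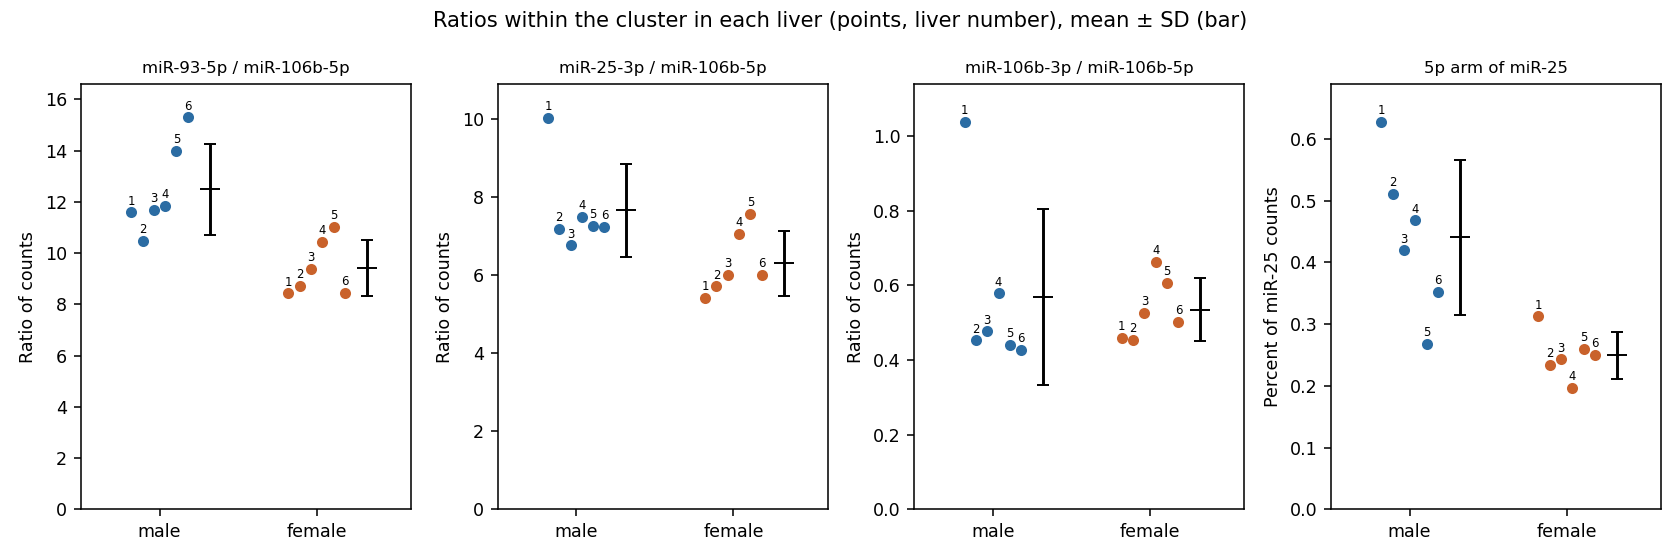
Count ratios of miR-93-5p, miR-25-3p and miR-106b-3p to miR-106b-5p and the percent of miR-25 counts from the 5p arm (axes from 0) in each of 6 male and 6 female livers, with the liver number, mean and SD. miR-93-5p per miR-106b-5p runs from 10.5 to 15.3 in males and from 8.43 to 11 in females, and male 1 lies apart for miR-25-3p, at 10.1, and for miR-106b-3p, at 1.04.

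The seed of miR-106b-5p and miR-93-5p is carried by 7 names of the table, so a change in the cluster's arms is a change in part of a larger pool. The others with counts are shown with the shared seed in capitals to let the remaining bases be compared.
miR-17-5p: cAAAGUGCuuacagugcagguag
miR-20a-5p: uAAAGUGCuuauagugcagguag
miR-106a-5p: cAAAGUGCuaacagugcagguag
miR-20b-5p: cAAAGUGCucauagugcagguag
miR-106b-5p differs from each of miR-17-5p, miR-20a-5p and miR-106a-5p at 3 of 21 bases aligned from the 5′ end. How reads with mismatches were assigned is not given in the sources used here, so a small exchange of reads between these names cannot be told apart from a change in level. miR-6383, the remaining name with this seed, had 0 counts in every liver.

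Within this pool miR-106b-5p was a minor part, with 2.79 ± 0.590% of the family's reads in male livers and 3.35 ± 0.257% in female livers (SD over 6 livers). miR-20a-5p held the most, 45.2 ± 4.84% in males and 45.6 ± 1.5% in females, followed by miR-93-5p with 34.1 ± 3.84% and 31.3 ± 1.36%, and miR-17-5p with 17.6 ± 0.670% and 19.4 ± 0.464%. The cluster's arms together held 32.3 to 44.7% in any liver, with the highest share in male 1. Of the 6 tested names with this seed 1, miR-106b-5p, passed the test, lower in males, and all 6 had negative log2 fold changes with a median of -0.21. The cluster's own miR-106b-5p and miR-93-5p are among these 6. Among all 419 tested names 8.59% were called lower in males, 222 were negative and the median was -0.02. miR-17-5p had -0.29 (edgeR, adjusted p = 0.104), miR-20b-5p -0.44 (adjusted p = 0.0821), miR-20a-5p -0.13 (adjusted p = 0.674) and miR-106a-5p -0.12 (adjusted p = 0.696). The summed level of the family was 4347 ± 896 CPM (SD, n = 6) in male and 4803 ± 270 CPM (SD, n = 6) in female livers, a difference within the spread of the males.

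miR-25-3p shares its seed with miR-92a-3p and with miR-32-5p. miR-92a-3p comes from hairpins of both paralogous clusters, and its reads were summed over the 2 loci, of which the one in miR-17-92 held 92.4% in the deposited counts.
miR-92a-3p: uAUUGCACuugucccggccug
miR-32-5p: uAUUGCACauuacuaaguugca
miR-25-3p and miR-92a-3p differ at 3 of 21 bases aligned from the 5′ end. miR-92a-3p held 72.8 ± 3.83% of the reads with this seed in males and 71.4 ± 1.07% in females, and miR-25-3p 22.4 ± 2.13% and 23.6 ± 0.781%. Of the 3 tested names 0 passed edgeR's test, beside 16.9% of all 419 tested names. Only miR-25-3p had an unadjusted p under 0.05, beside 29.4% of all tested names. With DESeq2 miR-25-3p passed, as given above, beside 20.3% of all tested names. miR-92a-3p had a log2 fold change of -0.06 (edgeR, adjusted p = 0.749) and miR-32-5p of -0.23 (adjusted p = 0.634). Both values include male 1, in which miR-32-5p held 0.969% of the reads with this seed, against 4.22 to 6.83% in the other males. miR-363-3p and miR-92b-3p, with 106 and 109 counts over all livers, did not pass the filter, and miR-367-3p had 0 counts.

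**Figure D4:**
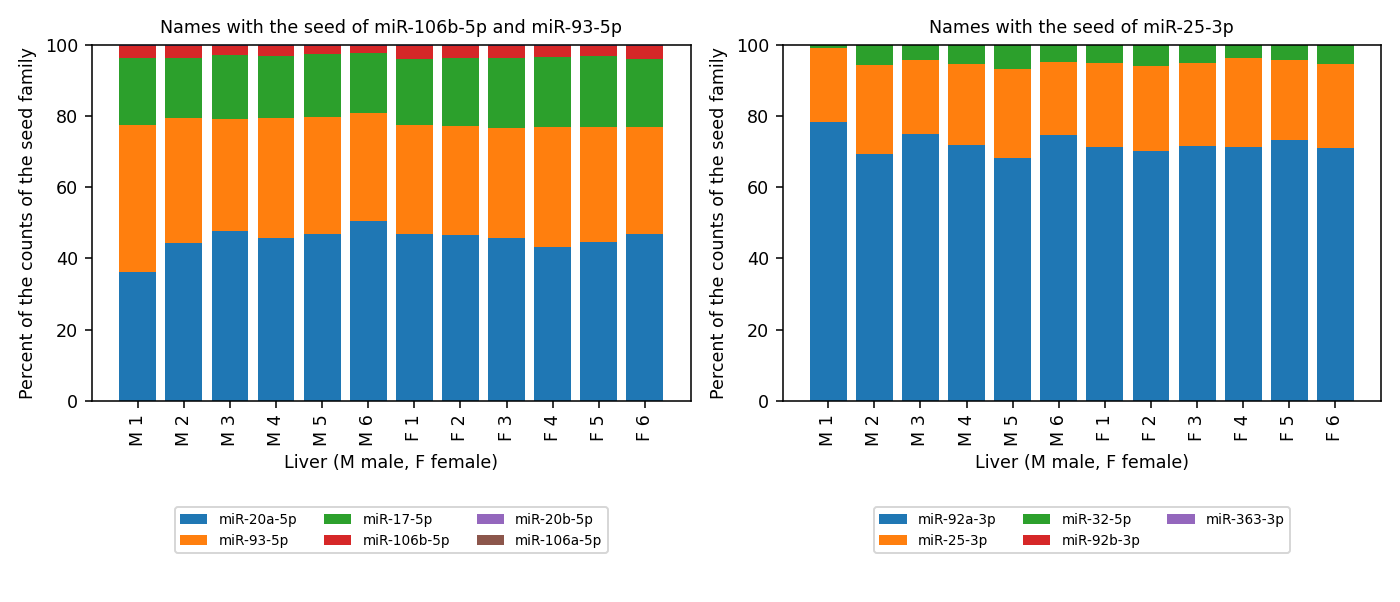
Percent of the reads of each seed family taken by each name in every liver (stacked bars adding to 100%, M male, F female). miR-20a-5p and miR-93-5p make up most of the first family, and miR-92a-3p most of the second, with miR-25-3p between 20.4 and 25.0%.

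Of the arms of the paralogous clusters, 1 was called, miR-17-3p, the passenger arm of miR-17. It had a log2 fold change of -0.35 (edgeR, adjusted p = 0.0216), with all 6 females above every male, as in 3.58% of all tested names. Of 8 tested names with a hairpin in miR-17-92 it was the only one called by edgeR or DESeq2, 7 of the 8 were negative, the others had values from -0.29 to 0.07, and the median was -0.10. Of all 419 tested names edgeR called 16.9% and DESeq2 20.3%, and 222 were negative. The names miR-19b-3p and miR-92a-3p among those of miR-17-92 also have a hairpin in miR-106a-363, and for miR-19b-3p the counts were split almost evenly, with 49.9% at the miR-17-92 locus, so neither name can be given to a single cluster. With those names 4 of miR-106a-363 were tested, and 0 passed with edgeR or DESeq2. Of these 4, 1, miR-20b-5p, had an unadjusted p under 0.05, beside 29.4% of all tested names. The median of those 4 was -0.09, or -0.28 over miR-106a-5p and miR-20b-5p alone, beside -0.14 for the 6 arms of miR-106b-25. No difference between the clusters was tested.

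**Figure D5:**
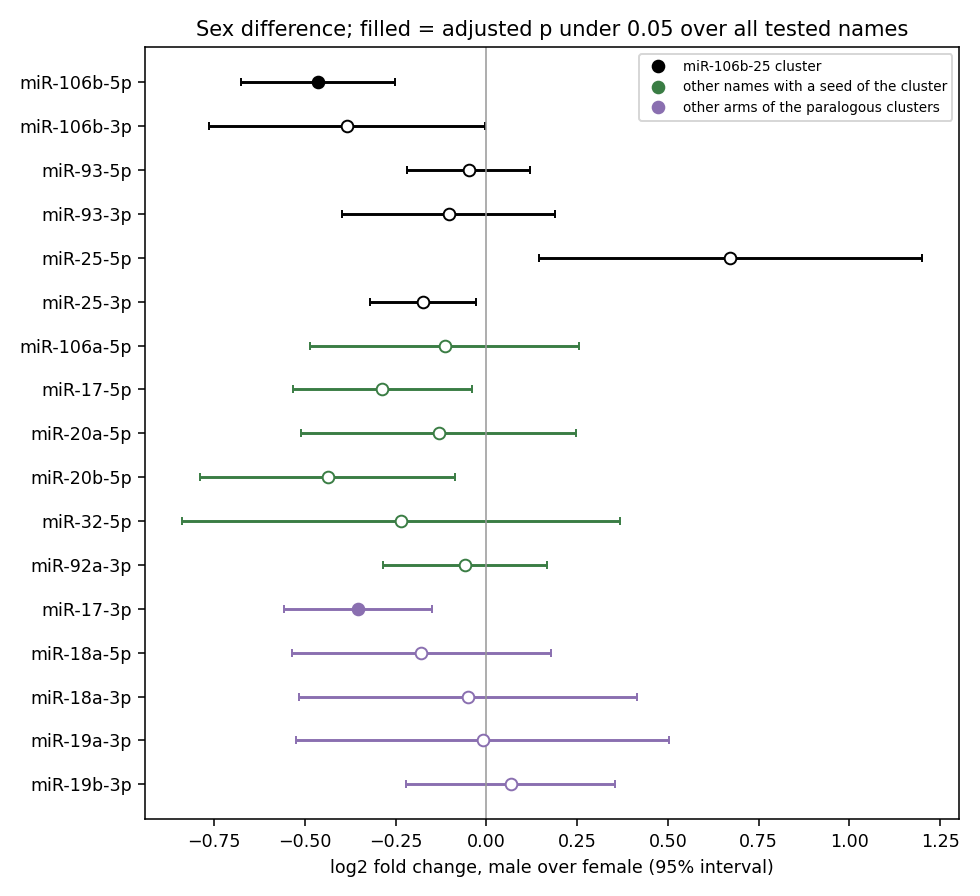
Log2 fold change of male over female with its 95% interval for the 6 arms of the cluster, the other tested names that share a seed with it and the other tested arms of the paralogous clusters; filled points passed an adjusted p of 0.05 over 419 names. miR-106b-5p, at -0.46, and miR-17-3p, at -0.35, are filled, and miR-25-5p, at 0.67, lies on the other side of 0.

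The profiles of the arms over the 12 livers were compared by the root mean square (RMS) difference of their log2 CPM deviations, against 300 other names of at least 10 CPM. Closest to miR-106b-5p were miR-152-3p (RMS difference 0.15), miR-17-3p (0.15) and miR-142a-5p (0.16), against a median of 0.37 over all names. Its own opposite arm, miR-106b-3p, ranked 133rd (0.34), miR-93-5p 55th and miR-25-3p 23rd. These ranks rest in part on male 1, without which, among 299 other names, miR-106b-3p ranked 31st (0.20), miR-93-5p 97th and miR-25-3p 8th. The nearest names were then miR-484 (0.11), miR-143-3p (0.12) and miR-17-3p (0.13). miR-93-5p lay closest to miR-192-5p (0.09), miR-103-3p (0.10) and its own passenger arm miR-93-3p (0.11), which without male 1 ranked 10th. Closest to miR-25-3p were miR-214-3p (0.06) and, tied, miR-24-3p and miR-3074-5p (0.09), which had identical values, and without male 1 miR-214-3p was again the nearest. These distances include the sex difference and are small for any pair of names that vary little.

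Whole liver also contains blood and immune cells, in which arms of the cluster are abundant, and fewer cells of a type cannot be told apart from less RNA per cell. Of 6 tested immune microRNAs (both arms of miR-142a, miR-150-5p, miR-223-3p, miR-155-5p and miR-146a-5p) 1 was lower in males, miR-142a-5p, with a log2 fold change of -0.47 (edgeR, adjusted p = 0.0256). Among all 419 tested names 8.59% were called lower in males and 16.9% in either direction. An unadjusted p under 0.05 was found for 29.4% of them, and DESeq2 called 20.3%. The 6 immune names summed to 1103 to 1784 CPM in males and 1390 to 2024 CPM in females. The opposite arm miR-142a-3p had -0.17 (adjusted p = 0.762). Of 5 erythroid microRNAs (miR-451a, both arms of miR-144, miR-486a-5p and miR-486b-5p) 0 passed edgeR's test, 1, miR-144-3p, had an unadjusted p under 0.05 and passed with DESeq2, and the 5 summed to 919 to 4286 CPM in males and 2104 to 3166 CPM in females. Neither list had a member at 0, sums were scaled by total counts, and the part of these cells in the difference of miR-106b-5p was not tested.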

How the data were processed

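Small RNA was sequenced from 12 mouse livers with a strand-specific kit for small RNA, per the labels' protocols. Per the submitters' processing notes the tools were Trim Galore, Bowtie2, bedtools and edgeR, with the build mm9; the sources used here give no versions, settings or handling of mismatches. Raw counts of reads per liver at 2044 loci were deposited by the authors. It also holds the authors' own comparison from edgeR, per the file headers: a log2 fold change, an average log2 CPM, a p-value and an FDR.

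Counts were summed by name (78 names have several loci, none of them a member), filtered with filterByExpr, scaled by TMM and tested with edgeR 4.0.16 (quasi-likelihood, sex only) in R 4.3.3, with Benjamini-Hochberg adjustment and calls at 0.05. Log2 ratios (prior count 2) were tested with limma 3.58.1. DESeq2 1.42.0, other scalings and filters, a replicate block and leaving out each liver were alternatives. Intervals cover 95%. On simulated data the sex comparison recovered 52% of 1.5-fold and 95% of 2-fold changes among 419 names. That simulation gave every name the same dispersion.

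Named were the 6 members, the tested names sharing their seeds, called arms of paralogous clusters and the 3 nearest profiles. Members, lists and tests were chosen with earlier results of these data known. Sequences of all 6 members were found in RefSeq's table.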

Additional observations from a re-analysis of the deposited data

Results flagged for a closer look

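Among 28 sets of 6 livers of 1 sex, each checked for a value far from the rest, 3 held such a value. Chance gives about 1 in 20 for a single set. The sets reuse the same counts, and the arms of miR-106b were compared in both directions, so the 3 cannot be weighed against that rate. Female 4 had 97.8 CPM of miR-106b-3p, where the other females had 80.1 to 85.7 CPM. Male 1 had 1.04 reads of miR-106b-3p per read of miR-106b-5p, where the other males had 0.426 to 0.578. The inverse ratio of the same counts, 0.963 against 1.73 to 2.35, was not flagged. Male 1 also had 10.1 reads of miR-25-3p per read of miR-106b-5p, where the other males had 6.77 to 7.50. The flagged ratios of male 1 share a denominator, miR-106b-5p, which at 102 CPM was the lowest of all livers. Their numerators were the highest among males. Male 1 had 106 CPM of miR-106b-3p, where the other males had 45.9 to 71.6 CPM. It had 1025 CPM of miR-25-3p, where the other males had 781 to 929 CPM. Its ratio of miR-93-5p to the same denominator lay within the range of the other males, 10.5 to 15.3. The part of each count in the flagged ratios was not tested.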

How the results depend on the processing

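Of 303 values recomputed under alternatives, 272 kept their direction and side of the threshold or stayed within 1.5 times. The 71 calls over all names became 48 with the replicate block, 84 with total counts alone and 47 to 82 with 1 liver left out, lowest without male 3. With total counts alone the median over all names went from -0.02 to -0.12 on the log2 scale, and the calls went from 35 higher and 36 lower in males to 26 and 58. Relative to that shift miR-106b-5p, at -0.58, changed little, and miR-25-3p passed at -0.28. DESeq2 also called miR-25-3p (-0.16), and testing without a filter ended the call of miR-106b-5p (-0.42). Called arm ratios fell from 3 to 1 with a minimum of 10 CPM, where miR-25-5p is not tested.

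With 1 liver left out, log2 fold changes ran from -0.58 to -0.30 for miR-106b-3p, 0.50 to 0.79 for miR-25-5p and -0.23 to -0.13 for miR-25-3p. Called arm ratios numbered 2 to 12, with 12 without male 1 and 8 without male 4. The arm ratio ran from -0.091 to 0.16 for miR-106b, -0.0058 to 0.088 for miR-93 and 0.62 to 0.82 for miR-25. The ratio to miR-106b-5p ran from -0.16 to 0.091 for miR-106b-3p and 0.20 to 0.33 for miR-25-3p. Without both male 1 and male 4, chosen after seeing the data, miR-106b-3p passed at -0.66 and miR-25-3p at -0.24, miR-93-5p turned to 0.022, the miR-106b arm ratio to 0.24 and the ratio of its 3p to its 5p arm to -0.24, and 17 arm ratios were called. Why these values moved was not tested.

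Livers of the same number showed little common deviation. Of 6 pairs 2 had a correlation over 0.1, at 0.27 and 0.30, and 0 of 6 males correlated best with the female of their number. The numbers were therefore not used as pairs in the main fit, but 6 correlations cannot exclude a pairing. With the replicate block miR-106b-5p had -0.46 (edgeR, adjusted p = 0.0327) and the miR-25 arm ratio 0.71 (limma, adjusted p = 0.0418), and no call among the members changed. Depth limits miR-25-5p most, with 8 to 23 counts a liver.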
